A study of Mus musculus with 6 samples.

Results

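The genes described here are 40 cell cycle and DNA replication genes, chosen by name from textbook roles and looked up by symbol in the deposited table. All 40 were among the 12969 genes of the table. They were split by role into 17 genes of the G1 phase and DNA replication and 23 genes of mitosis. Total RNA of the infarct was sequenced on day 4 from male mice of about 12 weeks whose left anterior coronary artery had been tied off for good. There were 3 Irf3 KO mice, labelled IRF3-/-, and 3 WT mice of the C57BL/6 strain. The IRF3 protein turns on interferon genes when a cell senses foreign or misplaced nucleic acid. All 6 mice were infarcted, so the comparison is between genotypes in injured tissue. The sources used here give neither the strain of the Irf3 KO mice, nor the deleted part of Irf3, nor whether the groups were littermates.

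The cell cycle is driven by waves of transcription. In late G1, cyclin D and cyclin E kinases release E2F factors, which switch on the genes that load the MCM helicase on DNA, unwind it and supply nucleotides. In G2, genes of the mitotic kinases, the kinetochore and the spindle follow, under the DREAM and MuvB complexes, B-Myb and FOXM1. In the healing infarct the dividing cells are mainly fibroblasts, macrophages and endothelial cells, while adult cardiomyocytes rarely divide. In bulk tissue, fewer dividing cells and less RNA per cell cannot be told apart.

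Values were RPKM, reads per kb of gene length and per unit of library depth, which allows levels to be compared between genes. The steps between low values gave 14.8 to 61.9 Mreads in genes for the Irf3 KO libraries and 15.7 to 20.8 Mreads for the WT libraries (Mreads, reads in units of the SI prefix mega). The 40 genes were covered by about 93 to 10858 reads per gene and library. Irf3 itself stood at 7.40, 8.74 and 7.68 RPKM in the Irf3 KO libraries, against 13.76, 13.87 and 11.56 RPKM in the WT libraries (limma adjusted p = 0.344). Irf3 KO replicate 2 stood apart from the rest, with a mean correlation of 0.907 to the other libraries, against 0.941 to 0.966 for those, and group medians are therefore also given without it. For all 40 genes and for replication and mitotic genes, medians are also given without WT replicate 3, the lowest WT library for these genes. Medians of smaller groups are given without Irf3 KO replicate 2 only, so the low WT replicate 3 stays in them. Cardiomyocyte markers such as Myh6 and Tnnt2 were high in every library. The markers of fibroblasts, macrophages and endothelial cells that the table holds were present in every library. Some of these were low, such as Tek at 5.41 to 20.83 RPKM and Pdgfra at 7.17 to 33.05 RPKM. The 6 lymphocyte markers listed were absent from the deposited table and could not be analysed.

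Promoter sequences from RefSeq (GRCm38.p6, 250 bases before to 50 bases after the start) were matched by symbol for 32 of the 40 genes, all but Mcm4, Gins2, Ccnd1, Ccna2, Foxm1, Aurkb, Tpx2 and Kif20a. The motifs searched, on both strands, were the E2F site (TTTGGCGC, TTTCCCGC or TTTCGCGC), the cell cycle homology region or CHR (TTTGAA), to which DREAM and MuvB complexes bind, and the CCAAT box (CCAAT), bound by NF-Y. Matches of different motifs were allowed to overlap. E2F letters were found in 7 of 14 replication promoters and 1 of 18 mitotic promoters, that of Cdk1, beside 2.12% of all 27025 genes with a promoter entry. CHR letters were found in 1 of 14 replication promoters, that of Mcm2, and in 13 of 18 mitotic promoters, beside 20.2% of all genes. CCAAT letters were found in 9 of 14 replication and 16 of 18 mitotic promoters, beside 41.1% of all genes. A match describes letters in this window and shows no binding.

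Among genes with a promoter entry, the 2 replication and 2 mitotic genes with the smallest unadjusted p between genotypes are printed 5′ to 3′, with every motif match on either strand in capitals. Those of Mcm5 (chr8:75109259-75109558, plus strand) and Mcm2 (chr6:88898731-88899030, minus strand) stand for replication. Those of Cenpf (chr1:189688037-189688336, minus strand) and Kif11 (chr19:37376132-37376431, plus strand) stand for mitosis, and each holds 1 CHR and at least 1 CCAAT box. Mcm5 holds 2 overlapping E2F matches, on opposite strands, and 3 CCAAT boxes, while Mcm2 holds 1 CHR, 1 CCAAT box and none of the E2F letters searched.
Mcm5: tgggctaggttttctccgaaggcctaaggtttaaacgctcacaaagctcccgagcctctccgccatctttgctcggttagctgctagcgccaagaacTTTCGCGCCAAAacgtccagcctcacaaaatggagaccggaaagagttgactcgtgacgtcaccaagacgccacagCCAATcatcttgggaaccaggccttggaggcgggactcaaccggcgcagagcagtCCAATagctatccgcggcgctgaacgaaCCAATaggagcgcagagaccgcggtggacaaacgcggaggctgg
Mcm2: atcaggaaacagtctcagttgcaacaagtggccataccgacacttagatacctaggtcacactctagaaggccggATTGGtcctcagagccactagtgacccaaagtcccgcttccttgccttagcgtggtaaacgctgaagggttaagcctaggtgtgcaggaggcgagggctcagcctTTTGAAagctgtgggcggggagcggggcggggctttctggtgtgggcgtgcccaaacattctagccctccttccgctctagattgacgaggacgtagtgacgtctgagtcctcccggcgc
Cenpf: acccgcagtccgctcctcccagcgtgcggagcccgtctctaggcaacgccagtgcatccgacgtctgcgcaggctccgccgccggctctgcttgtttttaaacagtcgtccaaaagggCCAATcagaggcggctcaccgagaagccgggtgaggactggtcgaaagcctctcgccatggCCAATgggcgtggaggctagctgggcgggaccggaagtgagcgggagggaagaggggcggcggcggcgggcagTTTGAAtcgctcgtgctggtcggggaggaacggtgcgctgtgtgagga
Kif11: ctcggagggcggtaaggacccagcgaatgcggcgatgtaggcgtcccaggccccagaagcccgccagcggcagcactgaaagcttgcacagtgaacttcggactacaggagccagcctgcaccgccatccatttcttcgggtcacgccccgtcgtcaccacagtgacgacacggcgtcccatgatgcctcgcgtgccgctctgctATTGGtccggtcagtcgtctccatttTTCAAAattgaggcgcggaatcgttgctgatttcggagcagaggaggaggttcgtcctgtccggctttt

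No cell cycle gene passed the test between genotypes. Of the 40 genes, 0 were called over all genes by limma at an adjusted p of 0.05, where 0.503% of the 12913 genes tested were called (65 genes: 46 or 0.356% lower and 19 or 0.147% higher in Irf3 KO), and 0 had an unadjusted p under 0.05, where 8.4% of all genes did. The smallest adjusted p among them was 0.556. By value, 19 stood above 0 and 21 below 0 in Irf3 KO, where 59.3% of all genes were below 0. The median over the 40 was -0.04 on the log2(RPKM + 1) scale, beside -0.09 over all genes tested. All Irf3 KO libraries lay above all WT libraries for 1 gene, Mcm5, where 6.61% of all genes did, and below them for 0 genes, where 11.8% of all genes did. The precision differed between genes: for 25 of the 40 the 95% interval of the log2 fold change stayed within 1 unit on either side of 0. On the log2(RPKM + 1) scale 1 unit is more than a 2-fold change of RPKM, most of all for low genes. For the other 15 a change of 1 unit lies inside the interval. Without Irf3 KO replicate 2, again 0 were called and 0 had an unadjusted p under 0.05, where 0.743% of all genes were called and 7.79% had such a p, and the median was 0.17. Leaving out WT replicate 3 instead moved the median the other way, to -0.24, again with 0 of the 40 called. With limma's gene-by-gene library weights 8 of the 40 were called, where 22.9% of all genes were called. They were Mcm2, Mcm3, Mcm5, Mcm7, Gins2 and Ccnd1, higher in Irf3 KO, and Cenpf and Kif11, lower. That fit gave Irf3 KO replicate 3 and WT replicate 2 weights of 6.36 and 4.40, against 0.103 to 1.003 for the others.

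**Figure D1:**
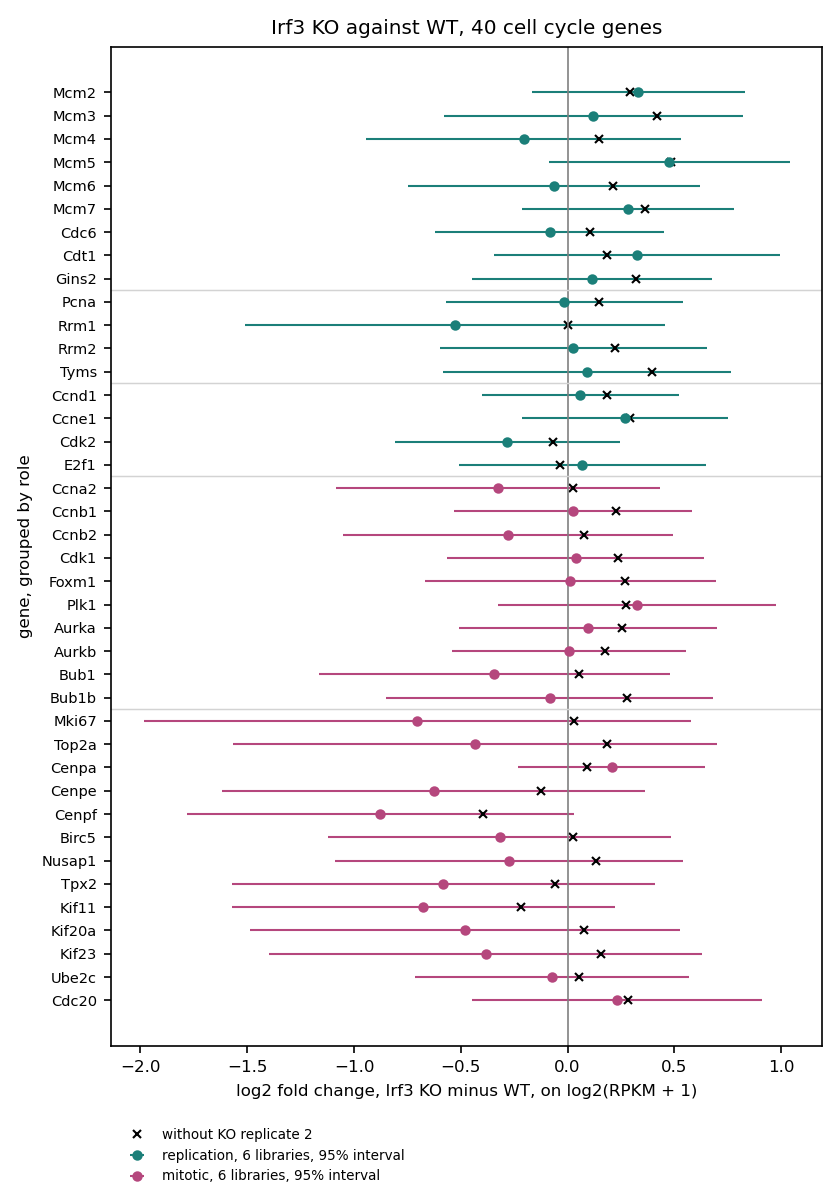
Log2 fold change of each of the 40 genes, Irf3 KO minus WT on log2(RPKM + 1), with the 95% interval of the limma fit over 6 libraries (points and bars, n = 3 per group) and the value without Irf3 KO replicate 2 (crosses). All 40 bars cross 0, and the widest, those of Mki67 and Top2a, belong to the group of chromosomes, spindle and exit.

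The genes of origin licensing and the replicative helicase load the MCM2-7 ring on DNA and start it. Over these 9 genes the log2 fold changes had a median of 0.12, 6 above and 3 below 0, and none was called. The median was 0.29 without Irf3 KO replicate 2. Mcm5, a subunit of the ring, had 23.44, 24.01 and 25.44 RPKM in Irf3 KO replicates 1 to 3, against 23.41, 17.84 and 12.08 RPKM in WT replicates 1 to 3. The groups did not overlap, though the lowest Irf3 KO value and the highest WT value nearly met. Its log2 fold change was 0.48 ± 0.25 (SE, n = 3 per group; limma adjusted p = 0.556). Mcm2, another subunit, had 15.60, 18.32 and 17.96 RPKM in Irf3 KO libraries, against 16.93, 14.07 and 10.29 RPKM in WT libraries. WT replicate 1 lay within the Irf3 KO range and the other WT libraries below it (log2 fold change 0.33 ± 0.22, limma adjusted p = 0.556). Without WT replicate 3 the log2 fold changes were 0.24 ± 0.22 for Mcm5 and 0.15 ± 0.22 for Mcm2. With every library in, Mcm3, Mcm4, Mcm6 and Mcm7 ranged from -0.20 ± 0.32 for Mcm4 to 0.28 ± 0.22 for Mcm7. Irf3 KO replicate 2 read low for some of the 6 and not for others: it had 0.45 times the mean of the other Irf3 KO libraries for Mcm4, 0.523 times for Mcm3 and 0.547 times for Mcm6. The same ratio was 0.828 for Mcm7, 0.982 for Mcm5 and 1.09 for Mcm2. Of the loading factors, Cdt1, which brings the ring to the origin, reached its highest value of 13.36 RPKM in Irf3 KO replicate 2, and Cdc6, its partner, its lowest of 1.16 RPKM in the same library. Gins2, a subunit of the GINS complex that activates the helicase, was at 3.04 ± 0.924 RPKM in Irf3 KO and 2.71 ± 0.754 RPKM in WT (SD, n = 3 per group).

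Pcna, the sliding clamp of the polymerases, and the enzymes that make DNA precursors form a group of 4 with a median of 0.01 on the log2 scale, 2 above and 2 below 0, and of 0.18 without Irf3 KO replicate 2. Pcna had 28.16, 19.76 and 27.86 RPKM in Irf3 KO libraries, against 32.49, 24.77 and 19.91 RPKM in WT libraries. The ranges overlapped, and the log2 fold change was -0.02 ± 0.24 (limma adjusted p = 0.976). Rrm1 and Rrm2 encode the large and the small subunit of ribonucleotide reductase, which makes deoxyribonucleotides. Rrm1, the gene with the highest WT mean of the 40 at 29.5 RPKM, had 32.64, 9.03 and 25.87 RPKM in Irf3 KO libraries, against 34.35, 31.86 and 22.38 RPKM in WT libraries. For Rrm1, Irf3 KO replicate 2 lay far below the WT range and the other Irf3 KO libraries lay within it (log2 fold change -0.53 ± 0.43, limma adjusted p = 0.584, and 0.0003 ± 0.22 without that library). Tyms, thymidylate synthase, had 7.15, 3.09 and 6.34 RPKM in Irf3 KO libraries, against 5.86, 5.19 and 3.77 RPKM in WT libraries, and the groups overlapped (limma adjusted p = 0.886). Rrm2 averaged 12.7 ± 3.29 RPKM in Irf3 KO and 12.5 ± 3.48 RPKM in WT.

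The regulators of G1 and S phase had a median of 0.06 over 4 genes, 3 above and 1 below 0, and of 0.08 without Irf3 KO replicate 2. Ccnd1, cyclin D1, which carries growth signals into the cycle and is made in many cells that do not divide, had 26.35, 21.67 and 30.64 RPKM in Irf3 KO libraries. It had 28.34, 23.39 and 23.22 RPKM in WT libraries, within the Irf3 KO range (log2 fold change 0.06 ± 0.20, limma adjusted p = 0.891). Ccne1, cyclin E1, which fires S phase with Cdk2, had 4.04, 3.78 and 4.00 RPKM in Irf3 KO libraries, against 4.08, 3.20 and 2.22 RPKM in WT libraries. WT replicate 1 was its highest and WT replicate 3 its lowest library (log2 fold change 0.27 ± 0.21, limma adjusted p = 0.577). Without WT replicate 3 the log2 fold change of Ccne1 was 0.10 ± 0.21. Cdk2, the S phase kinase, had 14.29, 8.57 and 13.61 RPKM in Irf3 KO libraries, against 15.51, 15.74 and 12.90 RPKM in WT libraries. Irf3 KO replicate 2 was the lowest library for Cdk2 and the others lay between 12.90 and 15.74 RPKM (log2 fold change -0.28 ± 0.23, limma adjusted p = 0.586). E2f1, a founding member of the E2F factors, had 6.08, 7.80 and 6.14 RPKM in Irf3 KO libraries, against 9.0, 6.04 and 4.48 RPKM in WT libraries, on both sides of the Irf3 KO range.

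Mitotic cyclins, kinases and the transcription factor Foxm1 had a median of 0.01 on the log2 scale over 10 genes, 6 above and 4 below 0, and of 0.23 without Irf3 KO replicate 2. Cdk1, the kinase that drives entry into mitosis, had 16.66, 9.68 and 13.76 RPKM in Irf3 KO libraries, against 14.90, 14.63 and 9.36 RPKM in WT libraries. Each group held 1 low library, Irf3 KO replicate 2 and WT replicate 3 (log2 fold change 0.04 ± 0.26, limma adjusted p = 0.947). Its partner Ccnb1, cyclin B1, had 5.16, 2.70 and 4.09 RPKM in Irf3 KO libraries, against 4.38, 4.19 and 2.94 RPKM in WT libraries, with the same low libraries (log2 fold change 0.03 ± 0.24, limma adjusted p = 0.961). Ccnb2, cyclin B2, had 23.34, 9.65 and 19.35 RPKM in Irf3 KO libraries, against 26.02, 20.60 and 15.15 RPKM in WT libraries (limma adjusted p = 0.694). Ccna2, cyclin A2, which acts in S phase and G2, had 16.68, 6.66 and 13.43 RPKM in Irf3 KO libraries, against 16.21, 17.57 and 11.07 RPKM in WT libraries (log2 fold change -0.33 ± 0.33, limma adjusted p = 0.642). For both cyclins Irf3 KO replicate 2 was the lowest of the 6 libraries and the other Irf3 KO libraries lay within the WT range.

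Plk1, a kinase of centrosomes and kinetochores, went against the cyclins in Irf3 KO replicate 2. It had 14.45, 16.49 and 14.73 RPKM in Irf3 KO libraries, against 16.66, 13.69 and 7.31 RPKM in WT libraries, so that the Irf3 KO libraries lay close together and WT replicate 3 far below (log2 fold change 0.33 ± 0.28, limma adjusted p = 0.602). Without WT replicate 3 the log2 fold change of Plk1 was 0.008 ± 0.21. Aurka and Aurkb, the Aurora kinases of the spindle poles and of the chromosomal passenger complex, stood at 0.09 ± 0.26 and 0.01 ± 0.24 on the log2 scale. Foxm1, which drives late cell cycle genes, averaged 6.06 ± 1.95 RPKM in Irf3 KO and 5.98 ± 1.84 RPKM in WT. The spindle checkpoint kinases Bub1 and Bub1b had log2 fold changes of -0.34 ± 0.36 and -0.08 ± 0.33, and of 0.05 and 0.28 without Irf3 KO replicate 2.

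Genes of chromosomes, kinetochores, spindle and mitotic exit had the lowest median of the role groups, -0.44 over 13 genes, 2 above and 11 below 0, with none called. Without Irf3 KO replicate 2 the median was 0.06, with 4 below 0. Mki67, the antigen used to stain dividing cells, had 21.76, 3.44 and 17.17 RPKM in Irf3 KO libraries, against 21.37, 22.61 and 13.99 RPKM in WT libraries. Irf3 KO replicate 2 lay far under every other library, and the other Irf3 KO libraries lay within the WT range. Its log2 fold change was -0.70 ± 0.56 with that library and 0.03 ± 0.23 without it (limma adjusted p = 0.582 and 0.981). Top2a, topoisomerase II alpha, which untangles sister chromatids, had 25.61, 5.42 and 19.34 RPKM in Irf3 KO libraries, against 22.20, 23.68 and 14.01 RPKM in WT libraries. Irf3 KO held both the highest and the lowest library for Top2a (log2 fold change -0.44 ± 0.49 with and 0.18 ± 0.25 without replicate 2).

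Cenpf, a large kinetochore protein, had the lowest fold change of the 40. It had 4.08, 0.69 and 3.19 RPKM in Irf3 KO libraries, against 6.02, 5.56 and 3.84 RPKM in WT libraries. Irf3 KO replicate 1 exceeded WT replicate 3, so the groups overlapped (log2 fold change -0.88 ± 0.39, limma adjusted p = 0.556, and -0.39 ± 0.20, adjusted p = 0.718, without Irf3 KO replicate 2). Kif11, the kinesin that pushes the spindle poles apart, had 9.08, 2.33 and 6.46 RPKM in Irf3 KO libraries, against 9.04, 11.41 and 7.21 RPKM in WT libraries. Its log2 fold change was -0.68 ± 0.39 (limma adjusted p = 0.556) and -0.22 ± 0.22 without Irf3 KO replicate 2. Cenpa, the centromeric histone H3 variant, had 17.55, 23.46 and 18.81 RPKM in Irf3 KO libraries, against 17.23, 18.58 and 15.38 RPKM in WT libraries, with its highest value in the library where Cenpe and Cenpf were lowest (log2 fold change 0.21 ± 0.19, limma adjusted p = 0.617). Kif20a and Kif23, kinesins of cytokinesis, were at -0.48 ± 0.44 and -0.38 ± 0.44, and Tpx2 and Nusap1, which bind spindle microtubules, at -0.58 ± 0.43 and -0.27 ± 0.35. Ube2c and Cdc20, of the anaphase-promoting complex pathway that ends mitosis, were at -0.07 ± 0.28 and 0.23 ± 0.30. Birc5, survivin, of the chromosomal passenger complex, was at -0.32 ± 0.35, and Cenpe, a kinetochore kinesin, at -0.63 ± 0.43. Without Irf3 KO replicate 2 the values were 0.08 for Kif20a, 0.16 for Kif23, -0.06 for Tpx2, 0.13 for Nusap1, 0.06 for Ube2c, 0.28 for Cdc20, 0.03 for Birc5 and -0.12 for Cenpe. Leaving out that library gave 17 of the 40 genes the other sign, and 28 took it when at least 1 of the 6 libraries was left out in turn.

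**Figure D2:**
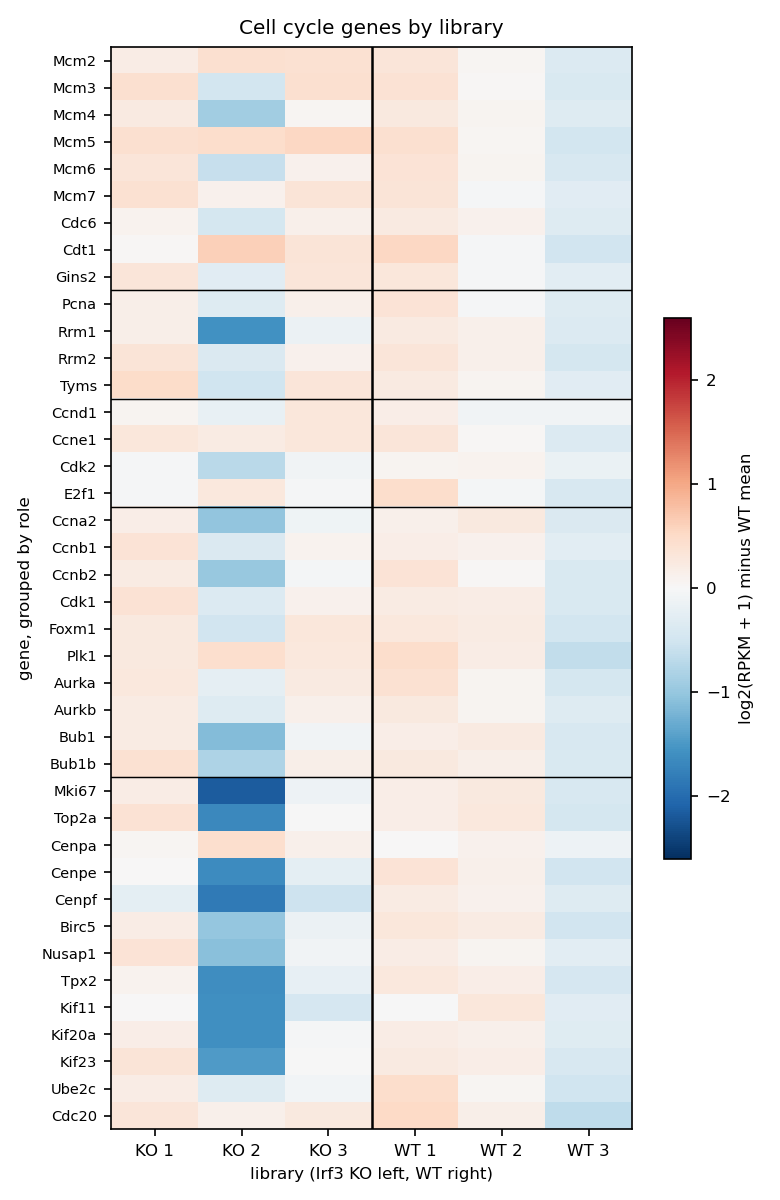
Colour shows log2(RPKM + 1) of each of the 40 genes in each library minus its WT mean, with Irf3 KO libraries on the left, WT libraries on the right, and lines between role groups. WT replicate 3 is blue in all 40 rows, while Irf3 KO replicate 2 is dark blue for most genes of the lowest block and for Rrm1, and red for some others, such as Cdt1 (0.62), Mcm5 (0.46), Cenpa (0.44) and Plk1 (0.44).

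The libraries of 1 genotype differed from each other across the whole set. WT replicate 3 was the lowest WT library for 40 of the 40 genes, where 44.9% of all genes tested had it lowest. Its values were 0.472 to 0.898 times the mean of the other WT libraries, with a median of 0.636, beside a median of 0.946 over all genes tested. The largest drop in WT replicate 3 was that of Cdc20, and the smallest that of Ccnd1. From high to low, 33 of the 40 genes stood in the order WT replicate 1, 2, 3, an order held by 31.8% of all genes. Irf3 KO replicate 2 was the lowest Irf3 KO library for 34 of the 40 genes, where 62.5% of all genes had it lowest. It was the lowest of all 6 libraries for 27, where 52.2% of all genes had it lowest, and the highest of 6 for 3, Mcm2, Cdt1 and Cenpa, where 24.1% of all genes had it highest. It stood at a median of 0.539 times the mean of the other Irf3 KO libraries, beside 0.775 over all genes tested. Summed over the 40 genes, the deposited RPKM were 553, 326.0 and 503 in Irf3 KO replicates 1 to 3, against 577, 507 and 353 in WT replicates 1 to 3.

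Cardiomyocyte markers differed between the same libraries. The 8 markers summed to 11710, 19720 and 14060 RPKM in Irf3 KO replicates 1 to 3, against 5753, 11090 and 15620 RPKM in WT replicates 1 to 3. All 8 were lowest of the 6 libraries in WT replicate 1, which had the highest cell cycle sum in deposited RPKM. All 8 were highest of the 3 WT libraries in WT replicate 3. In Irf3 KO replicate 2, 6 of the 8 were the highest of the 3 Irf3 KO libraries, while Ryr2, the calcium release channel, was the lowest of the 3 and Pln, phospholamban, lay between the others. The sum in Irf3 KO replicate 2 depends on the scale. Over all genes tested the RPKM summed to 367000, 667000 and 378000 in Irf3 KO libraries, against 410700, 329500 and 357900 in WT libraries. Short microRNA loci held much of the sum in Irf3 KO replicate 2, with mmu-mir-689-2 (57 bases) at 16.9% and Mir5105 (82 bases) at 13.9% of it. As a share of that sum the cardiomyocyte markers made up 3.19%, 2.96% and 3.72% in Irf3 KO libraries, against 1.40%, 3.37% and 4.37% in WT libraries, so that Irf3 KO replicate 2 was then the lowest Irf3 KO library. The 40 genes made up 0.151%, 0.0489% and 0.133% in Irf3 KO libraries, against 0.140%, 0.154% and 0.0986% in WT libraries. By this share WT replicate 2, and not WT replicate 1, was the highest library. Divided by median-of-ratios factors, the cardiomyocyte sums were 10880, 24140 and 13730 in Irf3 KO libraries, against 5302, 10550 and 15200 in WT libraries, and the sums of the 40 genes 514, 399 and 491 in Irf3 KO libraries, against 531, 483 and 343 in WT libraries. On each of these scales WT replicate 3 had the lowest cell cycle and the highest cardiomyocyte sum of the WT libraries. The 8 macrophage markers in the table summed to 5473, 2015 and 4377 RPKM in Irf3 KO libraries, against 5701, 3134 and 3104 RPKM in WT libraries. Irf3 KO replicate 2 had the lowest of these sums. Lyz2 weighed much in them, with 3826, 833 and 2859 RPKM in Irf3 KO replicates 1 to 3. Of the 8 markers, 7 were lowest of the Irf3 KO libraries in replicate 2. C1qa was highest there, with 381 RPKM against 359 and 329 RPKM. The macrophage sums of WT replicates 2 and 3 were close, and Lyz2 alone had 1772 and 1822 RPKM in these libraries. The 8 fibroblast markers summed to 4009, 3261 and 4459 RPKM in Irf3 KO libraries, against 5429, 5677 and 5277 RPKM in WT libraries, and the 6 endothelial markers to 320, 225 and 323 RPKM in Irf3 KO libraries, against 387, 272 and 249 RPKM in WT libraries. Smooth muscle and pericyte markers (6) summed to 631 to 779 RPKM in Irf3 KO and 699 to 1144 RPKM in WT, neutrophil markers (5 in the table) to 42.3 to 58.9 RPKM in Irf3 KO and 35.2 to 95.1 RPKM in WT, and red cell markers (4 in the table) to 122 to 826 RPKM in Irf3 KO and 81.5 to 360 RPKM in WT. Irf3 KO replicate 2 was the lowest Irf3 KO library for 6 of the 8 fibroblast and 4 of the 6 endothelial markers. Among the Irf3 KO libraries, the endothelial markers Tie1 and Eng were highest there. The sums of cell types other than cardiomyocytes are given in deposited RPKM only. No marker of these lists that the table holds was at 0 in any library. The part of tissue makeup in the cell cycle values was not tested.

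**Figure D3:**
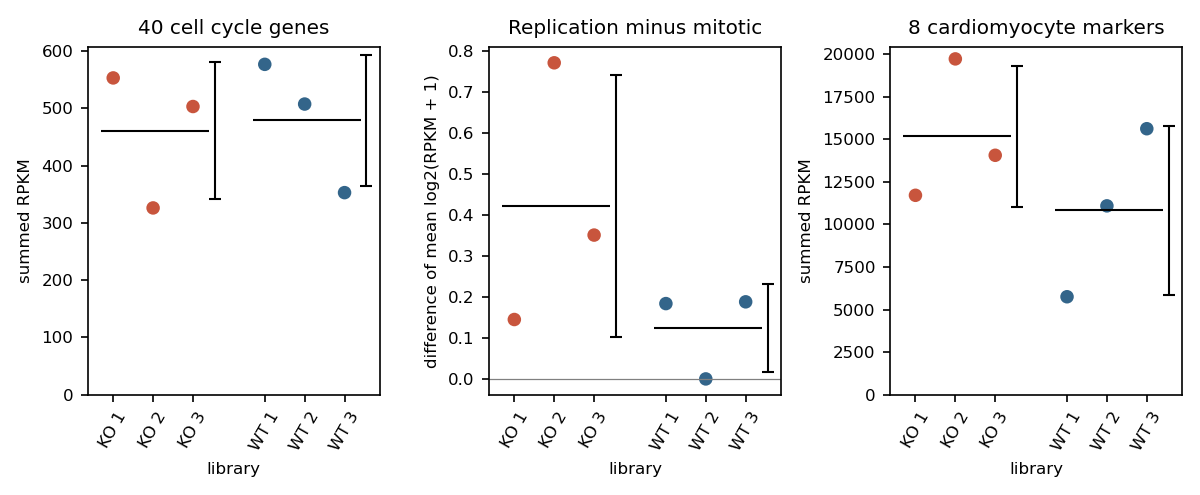
Each point is 1 library (Irf3 KO left, WT right), with the group mean and SD as bars (n = 3 per group): summed RPKM of the 40 genes, the mean log2(RPKM + 1) of replication genes minus that of mitotic genes, and summed RPKM of 8 cardiomyocyte markers. The groups overlap in each panel, and within each genotype Irf3 KO replicate 2 and WT replicate 3 are lowest on the left and highest on the right in deposited RPKM. As a share of all summed RPKM, Irf3 KO replicate 2 is the lowest Irf3 KO library for the markers too (2.96%).

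Replication and mitotic genes were then set against each other within each library, which removes what a library does to all 40 genes alike. The mean log2(RPKM + 1) of the 17 replication genes minus that of the 23 mitotic genes was 0.14, 0.77 and 0.35 in Irf3 KO replicates 1 to 3, against 0.18, -0.0003 and 0.19 in WT replicates 1 to 3. The groups overlapped, since Irf3 KO replicate 1 lay under WT replicates 1 and 3. The group means were 0.42 ± 0.32 in Irf3 KO and 0.12 ± 0.11 in WT (SD, n = 3 per group), a difference of 0.30, which was 0.12 without Irf3 KO replicate 2. As a description of genes, the median on the log2 scale was 0.07 for replication genes, with 6 of 17 below 0, and -0.28 for mitotic genes, with 15 of 23 below 0. Without WT replicate 3 the medians were -0.08 for replication and -0.47 for mitotic genes. Without Irf3 KO replicate 2 the medians were 0.21 and 0.09, with 2 of 17 and 4 of 23 below 0, where 47.9% of all genes were below 0. In that comparison the remaining Irf3 KO libraries lay above all WT libraries for 5 genes, Mcm3, Mcm5, Mcm7, Gins2 and Tyms, all of replication, where 10.9% of all genes did. These 5 were named after their values were seen.

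Within Irf3 KO replicate 2 the 40 genes were ordered in part by gene length and base composition. The 4 longest genes were the 4 lowest there, the last of them level with Kif20a. Its ratio to the mean of the other Irf3 KO libraries was 0.177 for Mki67 (10075 bases), 0.190 for Cenpf (11368 bases), 0.235 for Cenpe (7813 bases) and 0.241 for Top2a (9070 bases). The ratio was above 1 for Cdt1, Cenpa, E2f1, Plk1 and Mcm2, which were 2189 to 3370 bases long, and 4 of these, all but Cenpa, had a transcript GC content of 55.5% to 58.8%. For Cdc20 (1868 bases, 55.6% GC) and Ube2c (2600 bases, 55.5% GC) the ratio was below 1, at 0.895 and 0.74. Across the 40 genes Spearman's rho of the log2 difference was -0.63 with length and 0.69 with GC content, and across 12707 genes with a known GC content it was -0.32 and 0.61. Other libraries showed such relations too, as WT replicate 1 against the other WT libraries did over the 40 genes (rho -0.47 with length and 0.61 with GC content). Genes of 1 library share its processing and the libraries it is set against, so these are descriptions. Mitotic genes were longer and lower in GC content than replication genes, with a median length of 3918 bases for mitotic and 3498 bases for replication genes, and a median GC content of 47.4% for mitotic and 50.9% for replication genes.

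**Figure D4:**
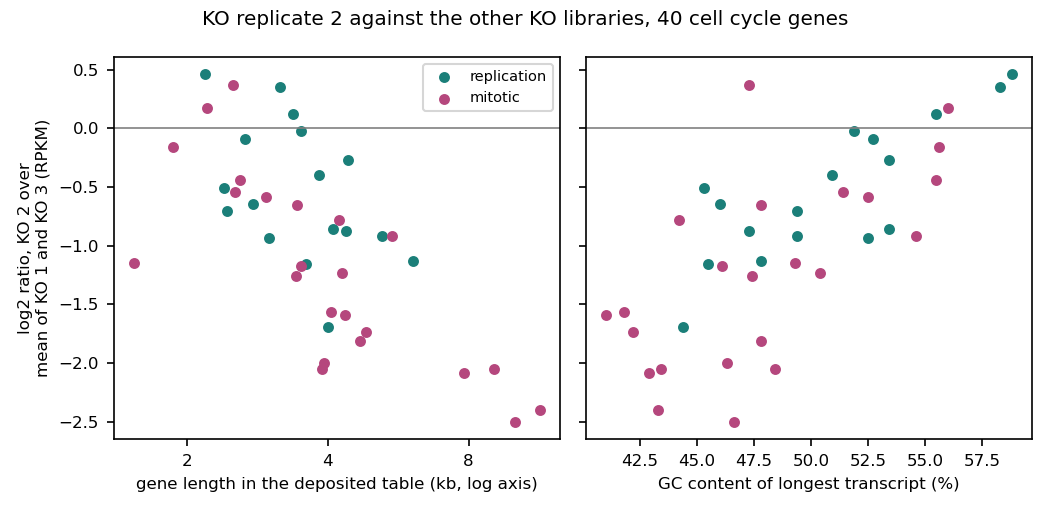
Each point is 1 of the 40 genes, and the vertical axis is the log2 ratio of RPKM in Irf3 KO replicate 2 to the mean of Irf3 KO replicates 1 and 3. Left, against gene length in kb on a log axis; right, against GC content in percent. The 4 longest genes, at the far right of the left panel, lie lowest with Kif20a and Kif23, and of the 5 genes above 0 all but Cenpa lie at 55.5% GC or more. Cdc20 (55.6%) and Ube2c (55.5%) reach that GC content too and lie below 0.

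With a smooth trend on GC content and length removed from each library, an alternative chosen after the data were seen, the medians in Irf3 KO replicate 2 relative to the WT mean were 0.12 for replication and -0.39 for mitotic genes. As deposited they were -0.34 and -1.01. Removing the trend also re-centred each library, and the median over all genes in Irf3 KO replicate 2 moved from -0.29 to -0.01. Part of the shift was therefore common to all genes. In WT replicate 3 the replication and mitotic medians with the trend removed were -0.33 and -0.40, close to the deposited -0.35 and -0.41. The replication minus mitotic difference between the genotypes was then 0.21, and 0 of the 40 genes were called, where 0.952% of all genes were called. The part of RNA quality in these values was not tested.

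Further genes of the pathway were taken from lists of textbook genes. Of 45 other replication genes tested, such as polymerases, clamp loaders and origin factors, 0 were called in either direction and 0 had an unadjusted p under 0.05, beside 0.503% and 8.4% of all genes. Their median was -0.09 on the log2 scale, with 29 below 0, but 0.12 without Irf3 KO replicate 2, with 12 below 0, and 0.08 with GC content and length corrected. Timeless, of the fork protection complex, had 3.51, 2.3 and 3.10 RPKM in Irf3 KO libraries, against 4.21, 4.62 and 3.63 RPKM in WT libraries, without overlap (log2 fold change -0.38 ± 0.20, limma adjusted p = 0.556). Atad2, a chromatin ATPase, had 9.24, 2.20 and 6.84 RPKM in Irf3 KO libraries, against 10.27, 11.15 and 8.0 RPKM in WT libraries (log2 fold change -0.75 ± 0.40, limma adjusted p = 0.556). WT replicate 3 was the lowest WT library for 40 of these 45 genes and for 62 of 64 other mitotic genes, beside 44.9% of all genes tested.

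The other mitotic genes had a median of -0.17 on the log2 scale, with 47 of 64 below 0, where 59.3% of all genes were. Without Irf3 KO replicate 2 the median was 0.09, with 21 below 0, and with GC content and length corrected it was -0.01. Of the 64, 0 were called and 1, Pttg1, had an unadjusted p under 0.05, beside 0.503% and 8.4% of all genes. Pttg1, securin, which holds back the protease that parts sister chromatids, had 6.83, 4.34 and 5.93 RPKM in Irf3 KO libraries, against 11.47, 14.53 and 17.21 RPKM in WT libraries. All Irf3 KO libraries lay below all WT libraries, and WT replicate 3, the lowest WT library for the 40 genes above, was the highest for Pttg1. Its log2 fold change was -1.20 ± 0.23 (limma adjusted p = 0.0897), and -1.05 ± 0.19 without Irf3 KO replicate 2 (adjusted p = 0.0782). It passed the threshold with GC content and length corrected (-1.04 ± 0.16, limma adjusted p = 0.0377). Kif15, a spindle kinesin, had 4.11, 0.72 and 2.85 RPKM in Irf3 KO libraries, against 4.90, 4.77 and 3.66 RPKM in WT libraries (limma adjusted p = 0.556).

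Genes that brake the cycle had a median of -0.16 on the log2 scale over 25 tested, 20 of them below 0, where 59.3% of all genes were. Of the 25, 0 were called and 1, Cdkn2b, had an unadjusted p under 0.05, beside 0.503% and 8.4% of all genes. The median was -0.02 without Irf3 KO replicate 2, with 14 below 0, and with GC content and length corrected it was -0.06. Cdkn1a, the CDK inhibitor p21, had 33.14, 35.17 and 43.84 RPKM in Irf3 KO libraries, against 52.28, 41.48 and 38.12 RPKM in WT libraries, and the groups overlapped (log2 fold change -0.23 ± 0.21, limma adjusted p = 0.618). Cdkn2b, p15, an inhibitor of the cyclin D kinases, had 3.25, 1.47 and 1.98 RPKM in Irf3 KO libraries, against 3.76, 5.66 and 3.15 RPKM in WT libraries (log2 fold change -0.69 ± 0.27, limma adjusted p = 0.556). Rb1, the retinoblastoma protein that holds E2F in check, had 6.65, 2.97 and 5.43 RPKM in Irf3 KO libraries, against 6.74, 7.29 and 6.80 RPKM in WT libraries (limma adjusted p = 0.556). Of 10 other G1 cyclins, kinases and E2F genes 0 were called, beside 0.503% of all genes. Their median was 0.03, and 0.12 without Irf3 KO replicate 2. E2f2, an activating E2F factor, had 3.54, 2.53 and 2.99 RPKM in Irf3 KO libraries, against 2.31, 2.42 and 1.60 RPKM in WT libraries, without overlap (log2 fold change 0.37 ± 0.19, limma adjusted p = 0.556). Cdk6, a cyclin D kinase, had 5.28, 2.68 and 4.58 RPKM in Irf3 KO libraries, against 6.38, 6.10 and 4.51 RPKM in WT libraries (limma adjusted p = 0.556).

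Some of these values carry a limit from the genome. Ccnb1, Ccnb2, Pcna and Tyms have pseudogenes named after them in GENCODE M21, and Pcna-ps2 is itself in the table, so reads can be split between copies. Exons of Ccna2, Cdc20, Gins2, Kif20a, Mcm7 and Nusap1 overlap exons of a gene on the opposite strand that the table also holds. The sources used here do not say how strand was handled, so reads of these genes and their neighbours may not be told apart.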

How the data were processed

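RNA of infarct tissue from 3 Irf3 KO and 3 WT mice was sequenced, per the labels. The authors deposited RPKM rounded to 2 decimals, with gene lengths in bases. The submitters' processing notes name STAR 2.3.0, HTSeq 0.6.0, edgeR 3.8.6, SAMtools 0.1.18.0 and Picard 1.100, without their roles, and mm9 (NCBIM37). Settings, strand and the choice of the 12969 genes: not given in the sources used here. In 5 lines part of the gene name stood in the first value cell and was moved back. Columns were matched to samples by title.

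The depth that scaled the RPKM of each library was estimated from the steps of low RPKM times length. At the best depth, 99.6% to 100% of low values were whole reads within a tolerance of 0.2, against 40% for evenly spread values. The depth was chosen to fit these same values, so this share is no independent check of it. Since 2 decimals do not give whole reads for all genes, no count model was used. A mean of 1 RPKM or more was required, which 12913 genes met, including all 40 described. Values of log2(RPKM + 1) were fitted by limma (version 3.58.1; R 4.3.3), with moderated two-sided tests and a mean-variance trend, Irf3 KO against WT, with Benjamini-Hochberg adjustment over all genes and a threshold of 0.05. Fold changes on this scale understate changes of low genes. Each library was taken as 1 mouse. The labels name no litters, so a p-value reflects only how these samples spread, which may be technical. An exact permutation test of 3 against 3 cannot go below p = 0.1. The fit was tested on simulated data.

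Members, lists and tests were chosen with earlier results of these data known. Values in every library were given for Mki67, Top2a, Ccnb1, Cdk1, Mcm2, Pcna, Ccnd1 and Cdkn1a, for the 2 smallest p and the highest mean of each role group, and for the 2 smallest p of each other list; Irf3 checked the labels. Other genes named were chosen after their values were seen, save that all 40 are described. Alternatives were pseudocounts of 0.1 and 0.5 RPKM, no filter, a filter of 5 RPKM, median-of-ratios scaling, quantile normalization, library weights, no trend, each library left out, the replicate number as a block, and GC and length correction, which was added later, as were other scalings of summed RPKM. GC content came from the longest GENCODE M21 transcript, matched by symbol or a unique synonym for 98.4% of genes and all 40.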

Additional observations from a re-analysis of the deposited data

How the results depend on the processing

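Among the 40 genes 0 were called in all settings run except with limma's library weights, where 8 were. The count over all genes was 65, and 34 with a filter of 5 RPKM, 104 with quantile normalization, 2960 with library weights, 121 with GC and length correction, and 21 to 96 with 1 library left out (26 without Irf3 KO replicate 3, 31, 30 and 21 without WT replicates 1, 2 and 3). REML estimates of the weights did not converge and gene-by-gene ones were used. Median-of-ratios scaling moved the median of all genes from -0.09 to 0.02 and that of the 40 genes from -0.04 to 0.08. Leaving out 1 library gave medians of -0.24 (without WT replicate 3) to 0.17 (without Irf3 KO replicate 2) for the 40 genes, -0.08 to 0.21 for replication and -0.58 to 0.09 for mitotic genes, and a replication minus mitotic difference of 0.12 to 0.44. With each library left out in turn, 28 of the 40 uncalled genes took another sign at least once, 17 without Irf3 KO replicate 2 and 11 without WT replicate 3. Among genes named by the stated rule they were Ccna2 (-0.58 to 0.0264), Ccnb1 (-0.14 to 0.22), Ccnb2 (-0.52 to 0.0753), Ccnd1 (-0.0556 to 0.18), Cdk1 (-0.16 to 0.24), Mki67 (-1.15 to 0.029), Pcna (-0.18 to 0.16), Rrm1 (-0.87 to 0.0003), Top2a (-0.84 to 0.18) and Tyms (-0.10 to 0.40). Pcna also stood at 0.11 with median-of-ratios scaling, 0.18 with library weights and 0.19 with GC and length correction, and Cdkn1a at 0.0152 with library weights. The causes were not tested. With 1 library left out the adjusted p of Pttg1 was 0.0782 to 0.391. Irf3 passed with GC and length correction (-0.74, limma adjusted p = 0.0394), and both Irf3 and Pttg1 passed with library weights (adjusted p = 0.00048 and 5.3e-05).

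With the replicate number as a block 250 genes were called and 0 of the 40 (smallest limma adjusted p = 0.185), and Pttg1 passed (adjusted p = 0.0173). Deviations of same-numbered libraries correlated at 0.129, -0.098 and -0.102, and only the replicates 1 correlated best with their own number. The labels do not say whether the numbers pair the samples. Deviations within groups of 3 libraries cannot settle it. With 3 mice per genotype, 15 of the 40 intervals include a change of 1 unit on the log2(RPKM + 1) scale.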
